A study of Homo sapiens with 48 samples.

Results

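The sets described here are alternative 3′ splice sites, also called alternative acceptors: places where introns that start at 1 common donor can end at different positions, so that the next exon begins earlier or later. They were measured in IMR90 ER:RAS cells, human lung fibroblasts that carry oncogenic HRAS with the G12V change fused to the ligand-binding domain of the oestrogen receptor. Members were the rows of the splicing table of type Alt3 that had a PSI value in all 48 libraries, a usable coverage score in every library and a PSI that varied by at least 5 points between the lowest and the highest library. PSI (percent spliced in) is here the percentage of the reads of a set that use a given acceptor. This rule kept 1005 of 20812 Alt3 rows, and the whole table held 363278 rows. The 1005 rows describe acceptors of 497 sets in 445 genes, and 424 of the sets have 2 acceptors. The rule used the measured spread over all libraries, so sets that respond to a knockdown are over-represented among members. For that reason the counts are also given over the 1708 sets covered in every library. Just inside the limit was DVL3 with a range of 5 points, and just outside it was MMS19 with 4.95 points.

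Cells were treated with DMSO, which leaves RAS non-induced, or with 4-hydroxytamoxifen (4OHT), which activates the fusion, for 6 days, transfected with siRNA and collected 2 days later in 0.5% serum. The siRNAs were non-targeting (siNT1 and siNT2), against SF3B1 (siSF3B1-13 and siSF3B1-16) or against RBM39 (siRBM39-06 and siRBM39-08), with 4 replicates of each in each treatment. Pooling the siRNAs of a target gave 6 groups of 8 libraries: DMSO siNT, DMSO siSF3B1, DMSO siRBM39, 4OHT siNT, 4OHT siSF3B1 and 4OHT siRBM39. All groups carry the ER:RAS construct and come from 1 cell line, and the labels do not say whether replicates came from separate cultures, so the p-values measure the spread between these libraries.

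The end of an intron is recognised in steps. SF1 binds the branch point, U2AF2 and U2AF1 bind the run of pyrimidines and the AG at the intron's end, and the U2 snRNP, whose SF3B1 subunit clamps the branch point, replaces SF1. RBM39 is an RNA-binding protein related to U2AF2 that contacts U2 snRNP and SR proteins. When a pair of acceptors competes for 1 donor, the position of the branch point, the pyrimidines and the distance between the AGs all bear on which is used. Acceptors 3 nt apart, known as NAGNAG tandems, add or remove 3 nt of mRNA.

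Library totals ran from 31467221 to 52734636 gene counts. The median member row rested on 57.5 reads in its median library, but the lowest library of any member row had 2 reads, so values of the shallow sets are coarse. The labelled cell type was checked against its markers: COL1A1, COL1A2, COL3A1, PDGFRB, THY1, DCN, LUM, FAP and VIM were each at 10.61 cRPKM or more in all 48 libraries, while CDH1, KRT14, CDH5, KDR, PTPRC and CD3E stayed under 1 cRPKM in all 48. Of the other epithelial and immune markers, EPCAM reached 1.53, KRT5 ranged from 0.58 to 13 and CD68 from 21.13 to 66.06 cRPKM, and their part in the results was not tested. SF3B1 mRNA was 358.6 ± 25.4 CPM (SD, n = 8) in DMSO siNT and 32.78 ± 1.57 CPM in DMSO siSF3B1, and it was 328 ± 8.26 CPM in 4OHT siNT and 27.26 ± 1.9 CPM in 4OHT siSF3B1. RBM39 mRNA was 170.3 ± 9.77 CPM in DMSO siNT and 27.38 ± 2.18 CPM in DMSO siRBM39, and it was 120.2 ± 4.31 CPM in 4OHT siNT and 16.27 ± 1.73 CPM in 4OHT siRBM39. No library of a knockdown group overlapped its siNT group for the targeted gene.

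The acceptors on which the results turn are shown first, to let the competing sites be compared. Each line gives the last 25 intron bases and the first 3 exon bases, 5′ to 3′ on the transcribed strand, with the last 2 intron bases in capitals, and positions are those of the first exon base in GRCh37 with GENCODE annotation. All of these genes are protein coding, and acceptors are counted from upstream.
INPPL1 acceptor 1 (11, 71940052, + strand): atccatcccgccctggttgccacAGgta
INPPL1 acceptor 2 (11, 71940134, + strand): ctgacttcttaacccctccccaaAGtgc
CLINT1 acceptor 1 (5, 157216575, - strand): tttagagcatttttctattttccAGcct
CLINT1 acceptor 2 (5, 157216521, - strand): gaagcctaatcctctctataatcAGaat
HNRNPUL1 acceptor 1 (19, 41811551, + strand): tctgcagatttcctctatttcacAGagc
HNRNPUL1 acceptor 2 (19, 41811581, + strand): tggcttttttccctccactttccAGccg
GAK acceptor 1 (4, 860322, - strand): tccccatgcccgcctgtccccacAGctg
GAK acceptor 2 (4, 860289, - strand): tttggcccgcttctgccgtcttcAGgca
SLC35B1 acceptor 1 (17, 47783696, - strand): tttttttttttttgtcttctcccAGtga
SLC35B1 acceptor 2 (17, 47783671, - strand): tgatccagttttttgacactgccAGggt
BCL2L1 acceptor 1 (20, 30310151, - strand): tattaattatttttttttcctgaAGctc
BCL2L1 acceptor 2 (20, 30310133, - strand): cctgaagctctttctctcccttcAGaat
The first exon base lay in an annotated coding exon for both acceptors of CLINT1, HNRNPUL1, GAK and SLC35B1. For INPPL1 acceptor 1 was not an annotated exon start, and for BCL2L1 neither acceptor lay in coding sequence. In all, 435 of the 497 member sets could be placed in GRCh37, and 931 of their 955 acceptors were preceded by AG. The other 24 acceptors lay in 19 sets, of which 6 were called after a knockdown. Those described below are acceptor 1 of CYTH2, acceptor 1 of TSPYL2, and acceptors 1 and 2 of both HNRNPR and PSAP. Only the genome bases at these positions were read. Whether they are true acceptors, how the reads counted there were spliced, and what this adds to those values was not tested.

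Knockdown of SF3B1 moved 3′ splice site use in many genes, and most of the called sets moved towards upstream acceptors, which lengthens the exon. In 4OHT, 75 of the 497 sets were called against siNT, 54 towards upstream and 21 towards downstream sites. A set was called when any of its rows passed a Benjamini-Hochberg adjusted p under 0.05 in limma with a difference of at least 5 PSI points. In DMSO, 70 sets were called, 54 upstream and 16 downstream. Over all 424 members with 2 acceptors, called or not, the split was more even: use of the upstream acceptor was higher in 219 and lower in 194 after siSF3B1 in 4OHT, with a median difference of 0.069 points, and higher in 230 and lower in 176 in DMSO, with a median of 0.29 points. Among Alt3 rows 14.7% were called in 4OHT and 13.8% in DMSO, against 22.4% and 19.4% of all 14619 rows of the 4 event types, so the share of 3′ splice sites was below that of the whole table. By type, 29.9% of cassette exons, 14.8% of introns and 7.65% of alternative 5′ splice site rows were called in 4OHT. In DMSO the shares of these types were 26.7%, 11.1% and 8.66%. Fitted without the range filter, 67 of the 1708 covered sets (3.92%) were called in 4OHT and 63 (3.69%) in DMSO. Both siRNAs gave a difference of the same sign in all 75 sets called in 4OHT and all 70 called in DMSO. A call on the pooled siRNAs already favours such agreement. The siNT and siSF3B1 libraries did not overlap in 26 and 25 of the called sets, although a call itself selects for separation. Over all rows of the 4 event types, called or not, they did not overlap in 17.1% in 4OHT and 13.5% in DMSO, and over the Alt3 rows in 5.57% in each. The treatments, which have separate controls, shared 50 sets, 66.7% of the 4OHT calls and 71.4% of the DMSO calls, all in the same direction.

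INPPL1 encodes the inositol phosphatase SHIP2. Its upstream acceptor, 82 nt before the main one, was used by a low of 0, a median of 2.48 and a high of 12.94% of reads in 4OHT siNT. In 4OHT siSF3B1 the lowest library was at 28.26, the median at 43.33 and the highest at 66.31%. All 8 siSF3B1 libraries lay above all 8 siNT libraries, a difference of 40.1 points (adjusted p = 1.5e-12, limma). In DMSO the means were 6 ± 3.2% in siNT and 50.3 ± 4.82% in siSF3B1, a difference of 44.3 points (adjusted p = 7.8e-11, limma). After siRBM39 the same site was at 2.39 ± 1.56% in DMSO and 1.78 ± 1.51% in 4OHT, and neither comparison with siNT was called.

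CLINT1, an adaptor of clathrin-coated vesicles, had the largest difference of any set between a knockdown and siNT. Its upstream acceptor lies 54 nt before the other. In 4OHT siNT it ranged from 6.2 through a median of 21.04 to 27.03%, and in 4OHT siSF3B1 from 61.54 through 79.26 to 100%. The difference was 61.5 points (adjusted p = 4.8e-08, limma), with no overlap. In 4OHT siRBM39 it ranged from 40 through 60 to 85.71%, a rise of 42 points (adjusted p = 0.0012, limma) in which the groups again did not overlap. In DMSO siSF3B1 the siRNAs differed, with means of 88.2 ± 12% for siSF3B1-13 and 59.8 ± 16.1% for siSF3B1-16 (n = 4 each). The lowest of these libraries, at 38.46%, overlapped DMSO siNT, which reached 40.1%. The siRBM39 difference was not called in DMSO. The set rested on as few as 10 reads in a library, so single values are imprecise.

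JTB, which encodes a transmembrane protein, used its most upstream acceptor at 0, 1.105 and 9.74% (lowest, median, highest) in 4OHT siNT and at 18.92, 31.32 and 49.39% in 4OHT siSF3B1. The rise was 29.5 points (adjusted p = 8.9e-11, limma), and in DMSO it was 38 points (adjusted p = 8.6e-10, limma). The middle acceptor of SMPD4, a sphingomyelinase, fell from 93.4 ± 3.32 to 57.9 ± 12.2% in 4OHT as use moved upstream. PXN (paxillin, a focal adhesion scaffold) rose from 14.9 ± 4.21 to 36.5 ± 7.13% at its upstream acceptor in 4OHT, TSPYL2, a nuclear protein whose upstream position lacks an AG, from 58.8 ± 6.44 to 79.1 ± 4.52%, and PPIF, the mitochondrial cyclophilin, from 5.4 ± 2.32 to 20.9 ± 4.36%. BEX3 (listed as NGFRAP1) rose from 29.7 ± 7.2 to 47.8 ± 2.71%, but it belongs to a family of closely related genes, so its reads are uncertain.

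**Figure D1:**
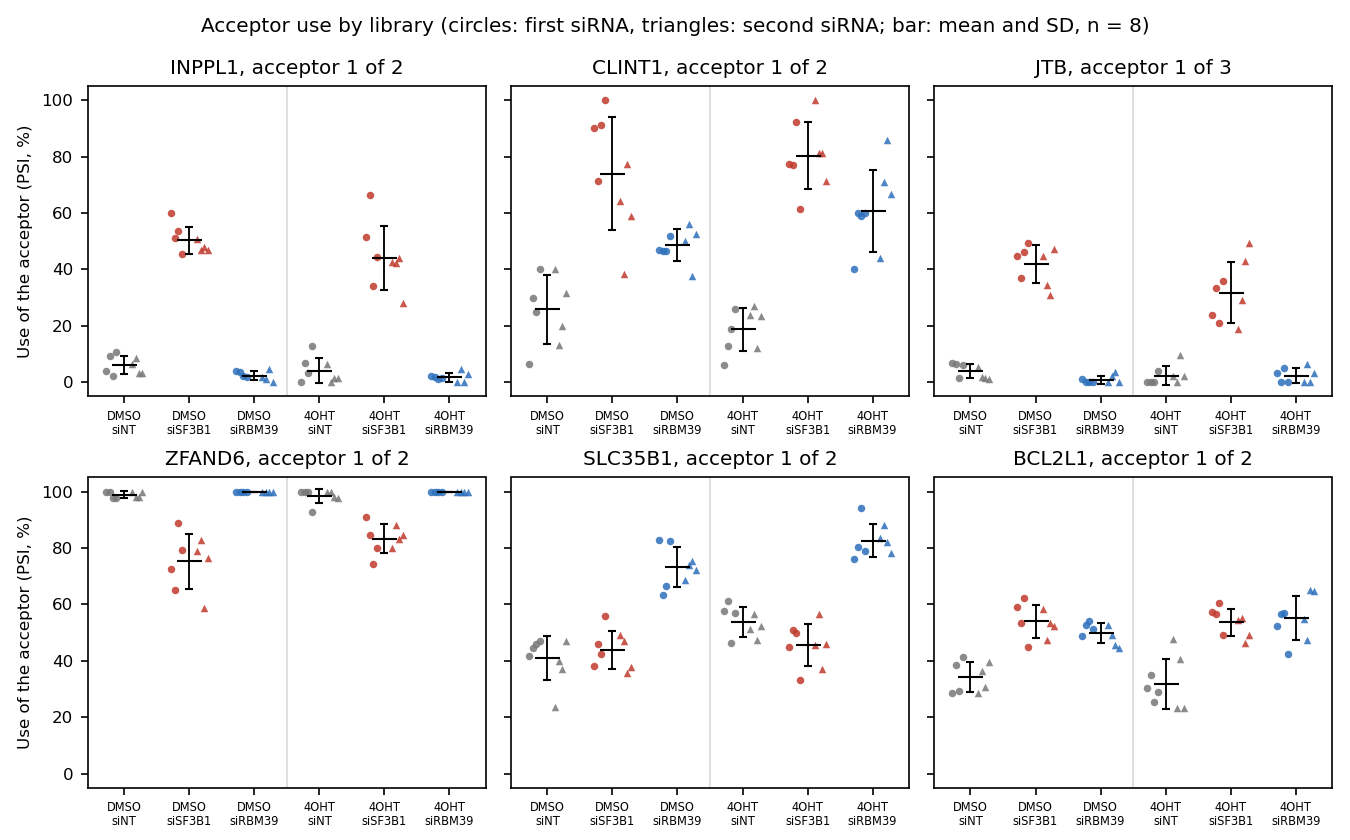
Use of the upstream acceptor (PSI, percent) in every library of 6 sets by group, with circles and triangles for the siRNAs of a target and bars for the mean ± SD of 8 libraries. INPPL1, CLINT1 and JTB rise after siSF3B1, ZFAND6 falls after siSF3B1, SLC35B1 rises after siRBM39, and BCL2L1 rises after both.

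Among the sets that moved downstream after siSF3B1, several used the upstream acceptor almost fully in siNT. In ZFAND6, which encodes a zinc finger protein of the ubiquitin system, the upstream acceptor was at 92.9, 100 and 100% (lowest, median, highest) in 4OHT siNT and at 74.47, 83.78 and 91.05% in 4OHT siSF3B1, and all 8 libraries of 4OHT siRBM39 were at 100%. The fall in siSF3B1 had an adjusted p of 5e-12 (limma). RB1CC1 (FIP200, an autophagy initiation factor) went from 98.1 ± 1.82 to 78.9 ± 10.2%, and GPR108, a multi-pass membrane protein, from 97.2 ± 1.46 to 75.3 ± 8.19% at the first of its 4 acceptors. Over the 2-acceptor sets, the median use of the upstream acceptor in DMSO siNT was 20% for the 46 called upstream in 4OHT and 85.3% for the 17 called downstream, beside 81.8% for the 423 such members with a value. A site near 0 can hardly fall and one near 100 can hardly rise, so the scale favours this order. MFSD10 (listed as TETRAN), a membrane transporter, fell from 98.8 ± 1.23 to 92.7 ± 3.15%.

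Knockdown of RBM39 moved fewer sets. In 4OHT 36 sets were called, 22 upstream and 14 downstream, and in DMSO 38 were called, 25 upstream and 13 downstream. Of the Alt3 rows 6.97% were called in 4OHT and 7.36% in DMSO, against 6.18% and 5.64% of all rows. Both siRNAs gave the same sign in all 36 and all 38 sets, which a call on the pooled siRNAs already favours. Replicate 4 of siRBM39-08 in 4OHT lay apart from the rest of its group for MAP4 and CHTOP, and without it 36 sets were again called in 4OHT. Without the range filter 29 of 1708 covered sets (1.7%) were called in 4OHT and 32 (1.87%) in DMSO.

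SLC35B1 is a transporter of the endoplasmic reticulum. Its upstream acceptor, 25 nt before the other, was at 46.51, 54.63 and 61.11% (lowest, median, highest) in 4OHT siNT and at 76, 81.17 and 94.34% in 4OHT siRBM39. The rise of 28.9 points had an adjusted p of 3.1e-08 (limma), and in DMSO it was 32.3 points (adjusted p = 8.5e-08, limma). In 4OHT siSF3B1 the site was at 45.6 ± 7.49%, which was not called. KIRREL1 (listed as KIRREL), an adhesion protein, rose from 74.1 ± 4.49 to 92.7 ± 5.24% in 4OHT. The second of the 3 acceptors of ARL6IP4, a nuclear RNA-associated protein, fell from 68.4 ± 7.33 to 37.9 ± 8.56%. LAMB1, the laminin beta 1 chain of the matrix, used an upstream acceptor at 0.398 ± 0.736% in 4OHT siNT and 7.37 ± 2.8% in 4OHT siRBM39, with no overlap. Sets that moved downstream included ARFGAP1, a GTPase-activating protein of the Golgi, from 93.6 ± 4.15 to 67.9 ± 6.85% at acceptors 6 nt apart, and SC5D (listed as SC5DL), an enzyme of cholesterol synthesis, from 100% in every library to 87.6 ± 5.09%.

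The knockdowns shared some sets. In 4OHT 13 sets were called after both, which is 17.3% of the siSF3B1 calls and 36.1% of the siRBM39 calls, and in DMSO 15 were (21.4% and 39.5%). These comparisons share their siNT libraries. Overlap of calls between comparisons, in the same or in opposite directions, was not counted over the other event types. Whether it is particular to 3′ splice sites was therefore not tested. BCL2L1, whose products include the anti-apoptotic BCL-XL, was one of the 8 sets called in all 4 knockdown comparisons. Its upstream acceptor, 18 nt from the other, was at 23.28, 29.59 and 47.78% (lowest, median, highest) in 4OHT siNT, at 46.24, 54.95 and 60.61% in 4OHT siSF3B1 and at 42.42, 55.8 and 65.17% in 4OHT siRBM39. The rises were 21.7 points (adjusted p = 1.5e-06) and 23.2 points (adjusted p = 2.7e-06, limma), although single siNT libraries overlapped both knockdown groups. OPTN, an autophagy receptor, rose from 82.5 ± 3.07% to 91.5 ± 4.26% and 90.7 ± 4.9%. The others were CYTH2, GAK, HNRNPUL1, MORF4L2, BEX3 and SMPD4.

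Some shared sets moved in opposite directions: 4 in 4OHT (GAK, HNRNPUL1, MORF4L2 and NELFE, listed as RDBP) and 6 in DMSO (ARFGAP1, GAK, HNRNPUL1, MORF4L2, PLPPR2, listed as AC024575.2, and PSAP). In HNRNPUL1, an hnRNP-like RNA-binding protein, the upstream acceptor was at 19.67, 32.23 and 49.09% (lowest, median, highest) in 4OHT siNT. It was at 46.88, 62.64 and 65% in 4OHT siSF3B1 and at 1.27, 3.99 and 10.2% in 4OHT siRBM39. The siRBM39 libraries lay below all others, while the highest siNT library overlapped the siSF3B1 group, and the direct difference between the knockdowns was 54.9 points (adjusted p = 9.5e-16, limma). In MORF4L2, a subunit of chromatin-modifying complexes, the first of 4 acceptors was at 40.96, 54.88 and 58.79% in 4OHT siNT, at 68.11, 75.31 and 80.09% in siSF3B1 and at 6.74, 10.96 and 20.93% in siRBM39, with no overlap between these 3 groups. MORF4L2 has near-identical copies elsewhere in the genome, so its read assignment is uncertain. GAK, a kinase of clathrin uncoating, went the other way: 58.49, 65.27 and 72.09% in 4OHT siNT, 18.18, 45.53 and 64.52% in siSF3B1 and 76.19, 85.86 and 96.67% in siRBM39.

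**Figure D2:**
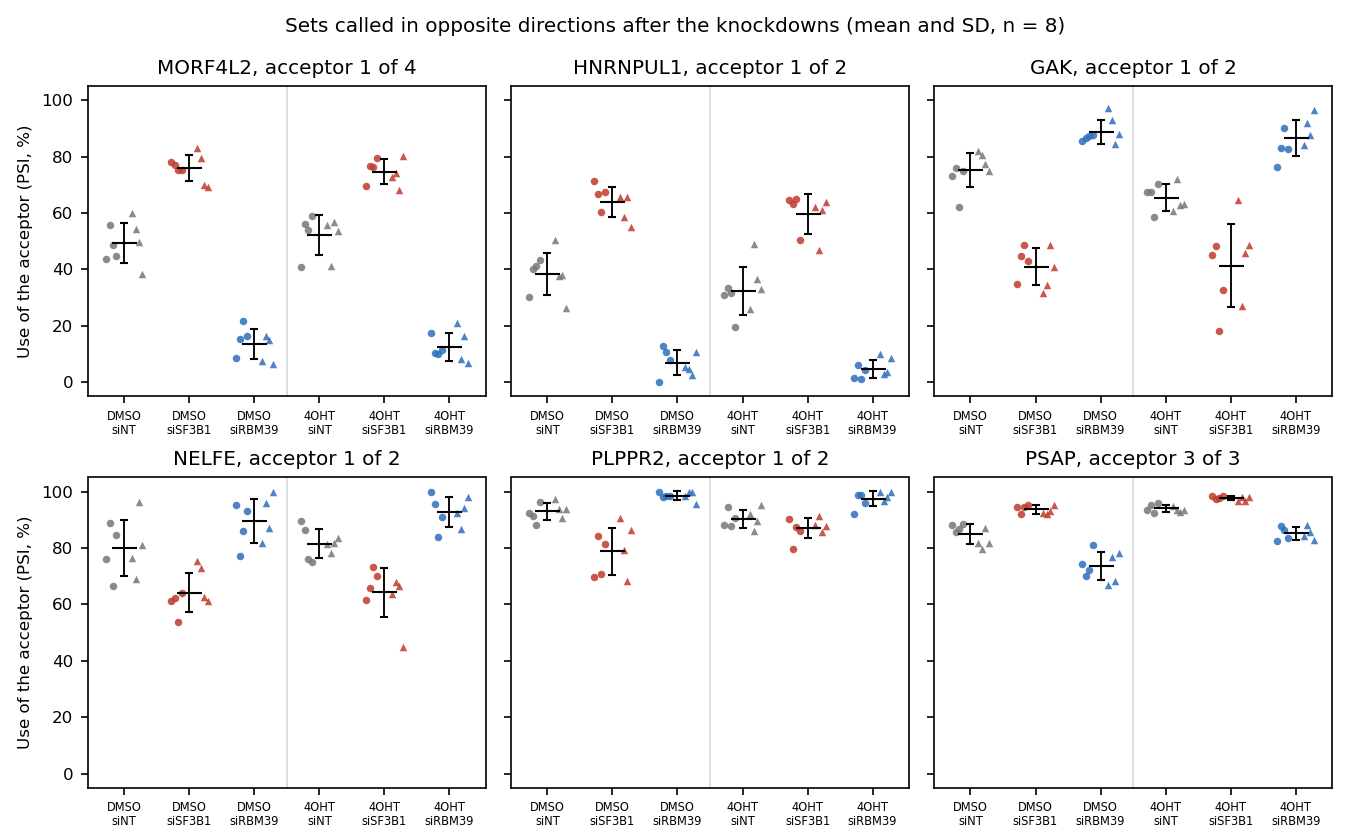
Acceptor use (PSI, percent) in every library of the 6 sets shown by symbol, with bars for the mean ± SD of 8 libraries per group. In MORF4L2 and HNRNPUL1 siSF3B1 lies above and siRBM39 below siNT, in GAK, NELFE and PLPPR2 the order is reversed, and PSAP shows its most downstream acceptor.

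Compared directly, siSF3B1 and siRBM39 differed in 86 sets in each treatment, with 56 using upstream acceptors more after siSF3B1 and 30 less. Of the Alt3 rows 16.9% were called in 4OHT, against 19.6% of all rows, and 16.8% in DMSO, against 17.2%.

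RAS activation alone gave few calls. Between 4OHT siNT and DMSO siNT 1 set was called (0.199% of Alt3 rows, beside 0.855% of all rows in that comparison). In limma 55 of the 497 sets (11.1%) had an unadjusted p under 0.05, counting a set when any of its rows passed. The called set was PSAP, the precursor of the lysosomal saposins. Its most downstream acceptor was at 79.56, 86.1 and 88.68% (lowest, median, highest) in DMSO siNT and at 92.52, 93.66 and 95.86% in 4OHT siNT, a rise of 9.08 points (adjusted p = 4.9e-06, limma) with no overlap. In DMSO the same acceptor rose by 8.7 points after siSF3B1 and fell by 11.5 points after siRBM39. The other acceptors of PSAP lack an AG, as given above, so whether this call is a shift between acceptors was not tested. The siSF3B1 effect differed between 4OHT and DMSO in 1 set (0.0995% of Alt3 rows, beside 0.287% of all rows). In limma 44 sets (8.85%) had an unadjusted p under 0.05, counted in the same way. The called set was NFYC, a subunit of the transcription factor NF-Y. Its most downstream acceptor averaged 0.49 ± 1.0% in DMSO siNT, 3.99 ± 1.25% in DMSO siSF3B1, 4.6 ± 4.54% in 4OHT siNT and 1.42 ± 3.44% in 4OHT siSF3B1, and the groups overlapped. The NFYC set had as few as 7 reads in a library, and the call was lost in 7 of the 12 alternatives that could be fitted to this row. The siRBM39 effect differed in 0 sets by limma (beside 0.00684% of all rows), with 30 sets (6.04%) at an unadjusted p under 0.05. Shares at an unadjusted p were not computed over all rows, so no excess is read from them.

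The distance between acceptors was described for called and uncalled sets. It was taken between the outermost acceptors of a set. In sets with more than 2 acceptors, distances to inner acceptors were not counted, so the outer distance does not give the frame of each site. The 1708 covered sets had a median distance of 21 nt, and 9.84% of them had acceptors 3 nt apart. Of the 497 members, 107 had acceptors 3 nt apart (21.5%), and 98 of the 375 sets not called after any knockdown were of this kind. Among sets moved upstream by siSF3B1 in 4OHT 2 of 54 were, and their median distance was 53.5 nt against 23 nt for all members. Among the sets moved downstream by siSF3B1 in 4OHT 5 of 21 were 3 nt apart (23.8%), and the median distance was 24 nt. That share was near the share of all members and above that of the covered sets. The sets moved upstream by siRBM39 in 4OHT had a median distance of 34.5 nt, and those moved downstream 45 nt. The distance was a multiple of 3 in 40.7% of the sets moved upstream and 66.7% of those moved downstream by siSF3B1 in 4OHT. It was a multiple of 3 in 53.9% of all members and 45.1% of the covered sets. Pyrimidines were counted for sets with 2 placed acceptors at least 25 nt apart. Over 158 members the median was 14 of 20 at both the upstream and the downstream site. It was 14 and 15 over the 31 moved upstream by siSF3B1 in 4OHT. The upstream site had more pyrimidines in 71 and fewer in 65 of the 158 members, and more in 9 and fewer in 17 of the 31. These shares are descriptions, because called sets were chosen on the same values.

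Among the tandems 3 nt apart, 94 were placed and 92 had an AG at both positions. In DMSO siNT the upstream site had a median use of 75.8% in the 59 tandems with a C before the upstream AG, 56.7% in the 21 with a T and 29.8% in the 11 with an A. The commonest form, CAGCAG, occurred 45 times with a median of 71.1% and a range of 3.17 to 97.3%. After siSF3B1, 7 of the 94 tandems (7.45%) were called in 4OHT, beside 15.1% of all members, and 1 (1.06%) in DMSO, beside 14.1%. After siRBM39, 2 (2.13%) were called in 4OHT, beside 7.24% of all members, and 3 (3.19%) in DMSO, beside 7.65%. Each of these counts includes CYTH2, whose upstream position lacks an AG. The 1 call after siSF3B1 in DMSO was CYTH2. The shares of called tandems depend on the range filter, because sets 3 nt apart were 168 of the 1708 covered sets (9.84%) but 107 of the 497 members (21.5%). Shares over covered tandems were not computed, so whether tandems respond less often than other sets was not tested. The median size of the difference was 1.9 points after siSF3B1 in 4OHT. The tandem of METAP2, an aminopeptidase, is shown with both AGs in capitals to let the alternative ends be seen.
METAP2 (12, 95869833 to 95869852, + strand): tttattttgatcAGcAGggg
Its upstream site fell from 84.6 ± 5.44 to 72.5 ± 5.55% after siSF3B1 in 4OHT (adjusted p = 0.004, limma), and was at 86 ± 4.75% after siRBM39. CYTH2, an exchange factor for ARF GTPases, rose from 47 ± 10.3 to 77.5 ± 5.31% in DMSO siSF3B1, the largest of the 3-nt sets, but its upstream position lacks an AG.

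Grouped by gene function, each list held few sets, so its shares are coarse and are given beside those of all members, 15.1% after siSF3B1 and 7.24% after siRBM39 in 4OHT. In the list for RNA splicing and RNA binding, with 29 member sets, 3 were called after siSF3B1 in 4OHT (10.3%) and 4 after siRBM39 (13.8%). HNRNPUL1 and STAU1, a protein that binds double-stranded RNA, moved upstream and SRSF11 (listed as SFRS11) downstream after siSF3B1 in 4OHT. After siRBM39 in 4OHT HNRNPR and STAU1 moved upstream and HNRNPUL1 and PCBP2 downstream, and both upstream positions of HNRNPR lack an AG. Of the 15 sets in the list for membrane traffic and lysosome, 3 were called after siSF3B1 in 4OHT (20%) and 5 after siRBM39 (33.3%). ATG4B, OPTN and PICALM (an autophagy protease, an autophagy receptor and a clathrin adaptor) moved upstream after siSF3B1 in 4OHT. After siRBM39 in 4OHT OPTN, PICALM and PSAP moved upstream and AP3D1 and ARFGAP1 downstream, and both upstream positions of PSAP lack an AG. Of the 12 mitochondrial sets, 2 were called after siSF3B1 in 4OHT (16.7%). IMMT and SDHA moved upstream after siSF3B1 in both treatments: the upstream acceptor of SDHA, a subunit of succinate dehydrogenase, went from 2.31 ± 2.43 to 14 ± 8.21% in 4OHT. The SDHA groups overlapped, with the highest 4OHT siNT library at 7.14% and the lowest 4OHT siSF3B1 library at 3.12%. In the list for transcription and chromatin, 1 of 18 sets was called after each knockdown in 4OHT (5.56%). The upstream acceptor of MED24, a Mediator subunit, rose from 5.57 ± 9.17 to 26.9 ± 9.47% in 4OHT after siSF3B1. The MED24 groups also overlapped, with siNT up to 26.67% and siSF3B1 down to 16.67%.

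The mRNA of the factors that recognise 3′ splice sites also changed. Of 33 tested genes in that list of 37, 19 rose and 10 fell after siSF3B1 in 4OHT, and 14 rose and 6 fell after siRBM39 in 4OHT (edgeR quasi-likelihood test, adjusted p under 0.05). These counts include the targeted genes, without which 9 fell after siSF3B1 and 5 after siRBM39. Across all 9991 genes tested, 39.4% rose and 37.6% fell after siSF3B1 in 4OHT, and 32.2% rose and 24.3% fell after siRBM39. RBM5, a splicing regulator, fell by 1.94 on the log2 scale after siSF3B1 in 4OHT and DDX42, a helicase that associates with SF3b, by 1.63, whereas DDX46, a helicase of the U2 snRNP, rose by 1.13. RBM39 itself rose by 1.06 after siSF3B1 in 4OHT, and SF3B1 rose by 0.29 after siRBM39. For SF3B1 the lowest 4OHT siRBM39 library was at 224.5 CPM and the median at 424.9 CPM, with 4OHT siNT libraries from 314.9 to 339.8 CPM.

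The mRNA of the host genes was compared with that of all genes, without a test of the difference. Of 443 tested host genes, 39.1% rose and 30.5% fell after siSF3B1 in 4OHT, and 31.8% rose and 18.3% fell after siRBM39. In DMSO 40.6% rose and 29.6% fell after siSF3B1, beside 36.5% and 36.2% of all genes, and 23.5% rose and 16.7% fell after siRBM39, beside 23.9% and 22.2%. Between 4OHT siNT and DMSO siNT 45.6% of host genes were higher and 26% lower in 4OHT, beside 39% and 39.1% of all genes. Among host genes of 2-acceptor sets moved upstream by siSF3B1 in 4OHT, 13 of 29 rose and 10 fell where the distance was not a multiple of 3, which shifts the reading frame in coding sequence, and 8 of 17 rose and 5 fell where it was.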

How the data were processed

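RNA-seq of 48 libraries was analysed. The authors aligned reads with vast-tools and deposited PSI as a percent per event with inclusion and exclusion reads, raw gene counts, and cRPKM (RPKM corrected for mappability, used here only for the marker check). Per the labels, edgeR and limma were used by the submitters, and the genome build is named hg19, but event coordinates lie in GRCh38: 99.8% of donors with a RefSeq gene fell inside it there. Sets were therefore placed in GRCh37 by matching exon structure.

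PSI was squeezed (0.01 plus 0.98 of the fraction), logit-transformed and fitted in limma 3.58.1 with 6 group means. The fit covered all 14619 rows of 4 event types that passed filters. These were coverage, PSI range (at least 5) and, for introns, balance (p of at least 0.05). The kinds of filter follow the study, but the fit differs from its own. The study's limma fit took only events with PSI from 1 to 99 in all samples. INPPL1, ZFAND6 and SC5D, with libraries outside those limits, could not enter such a fit. Its differential splicing was ranked with beta distributions of the reads. The study also dropped 1 row of each alternative splice site set. Here all rows were kept, and each of these steps was an alternative. Adjusted p-values are Benjamini-Hochberg over all events. The direction of a set is the change in mean exon extension. Genes with at least 10000 counts in total were tested with edgeR 4.0.16 (TMM, quasi-likelihood) in R 4.3.3. Both tests were tested on simulated data. Sets were named by size of the difference among called sets whose 8 against 8 libraries did not overlap, by opposite calls, by 3-nt distance and by gene list. Members and lists were chosen with earlier results of these data known. Reads without molecular identifiers are not independent molecules. The group of 4 libraries whose title and treatment label name different siNT siRNAs was taken from the title; their group is the same either way. Alternatives are given in the closing section.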

Additional observations from a re-analysis of the deposited data

Results flagged for a closer look

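Of 228 groups of 8 libraries (38 sets in 6 groups), chance alone would flag about 11.4 by Dixon's criterion if values were normal. Several groups here are bounded at 0 or 100%, so the count is not read as an excess. In 23 groups a library lay far from the other 7. In DMSO siNT these were GPR108 at 93.96% (others 97.14 to 100%), MFSD10 (listed as TETRAN) at 90.52% (95.66 to 100%), SLC35B1 at 23.68% (37.1 to 47.17%), GAK at 62.16% (73.17 to 82.05%) and ABI1 at 83.02% (63.93 to 72.73%). In 4OHT siNT they were JTB at 9.74% (0 to 3.89%), TSPYL2 at 45.28% (55.81 to 64.81%) and ZFAND6 at 92.9% (97.75 to 100%).

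In the siSF3B1 groups, the DMSO libraries were SLC20A1 at 85.71%, SC5D at 94.29%, CHTOP (listed as C1orf77) at 49.28% and ABI1 at 47.83%, and the 4OHT libraries were NELFE at 44.9%, SC5D at 93.94%, PLPPR2 at 79.55% and SRSF11 at 62.47%. In the siRBM39 groups, the DMSO libraries were SLC20A1 at 97.62%, NFYC at 8.76% (20 reads) and PLPPR2 at 95.45%, and the 4OHT libraries were MAP4 at 80.05%, NFYC at 10.53% (8 reads), CHTOP at 45.65% and METAP2 at 75.24%. MAP4 and CHTOP were from the same library, replicate 4 of siRBM39-08.

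The siSF3B1 effect on the most downstream of the 4 acceptors of NFYC differed between treatments by -6.67 points, 4OHT minus DMSO (adjusted p = 0.036, limma interaction term).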

How the results depend on the processing

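For siSF3B1 against siNT in DMSO and in 4OHT, and siSF3B1 against siRBM39 in DMSO and in 4OHT, the 70, 75, 86 and 86 called sets became 28, 36, 36 and 39 with only rows from PSI 1 to 99 under a plain logit, 40, 43, 48 and 51 with a coverage score of at least LOW (in place of VLOW) in every library, and 39, 43, 52 and 49 with a minimum difference of 10 points. These settings test fewer rows or ask for more. For siRBM39 against siNT, the 36 sets in 4OHT became 23, 23 and 19 under the same settings, and the 38 in DMSO became 21 at 10 points and 24 with siRBM39-06 alone. The single set of 4OHT against DMSO became 5 with the plain logit, 2 with coverage LOW, 2 with siNT2 alone, 0 at 10 points and 7 when called, in place of limma, by a probability of a difference of at least 0.8 from beta distributions of the reads (500 draws per library). Without 1 replicate number it became 1 to 4, the most without replicate 3. The set of the siSF3B1 interaction became 0 with the plain logit, coverage LOW, no range filter, the row of the site numbered 1 left out of each set, siNT1 alone, siNT2 alone or 10 points, and 4 with siSF3B1-13 alone. Without 1 replicate number it was 0 to 1, with 0 without replicate 1, 2 or 4. For 4 libraries in 4OHT the title and the treatment label name different siNT siRNAs, so the values with siNT1 or siNT2 alone rest on the title. The cause of these shifts was not tested.

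Replicate numbers did not pair the libraries: deviations of same-numbered libraries correlated at -0.00208 to 0.00305 on average. With a replicate block, 70, 74, 39 and 35 sets were called for siSF3B1 in DMSO and 4OHT and siRBM39 in DMSO and 4OHT, and no named call was lost. Over 2882 alternatives for 202 named differences, 2640 kept direction and call, 242 lost the call and 0 reversed. Leaving out 1 replicate number ended the call of 64 of the 202. Counts of host genes stayed within 1.5 times of the main value under each alternative. Depth limits the sets with few reads, where 1 read moves PSI by several points.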
